A study of Neurospora crassa with 24 samples.

Results

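The genes described here, during the germination of asexual spores of Neurospora crassa, are 7 named regulators of conidiation and of aerial hyphae: *fl* (NCU08726), *acon-3* (NCU07617), *csp-1* (NCU02713), *csp-2* (NCU06095), *rca-1* (NCU01312), *rco-1* (NCU06205) and *tah-1* (NCU00289). They were listed by name, with earlier results of these data known, and are 7 of the 9730 genes in each of the 2 deposited tables. RNA came from the wild-type mat A strain FGSC2489, whose macroconidia, harvested from BM plates for both media, were spread on cellophane over agar and kept in constant white light. One medium was Bird medium (BM), a synthetic medium with glucose and abundant nitrogen, and the other was maple sap medium (MSM), a natural medium very poor in nitrogen. Samples were taken 15, 120, 240 and 360 min after plating, named stages 1 to 4, with 3 replicates for each of the 8 combinations of medium and stage, 24 libraries in all. The times were set by the appearance of spores on BM, from fresh spores through the start of polar growth and a long axis that has clearly lengthened to the first branch, so a stage on MSM is the same time and not necessarily the same form. Each sample was a bulk population, in which more cells of one form and more RNA per cell cannot be told apart.

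Conidiation is the asexual program of N. crassa. Aerial hyphae rise from the mycelium, begin to bud at their tips, divide the chains of buds by walls and release them as dry, orange conidia that light and the circadian clock help to set off. Several of the genes described here act at different points of that program. *fl* encodes a zinc cluster transcription factor without which aerial hyphae do not form conidial chains, and *acon-3* is needed early, for the budding that starts a chain. *csp-1* and *csp-2* encode a C2H2 zinc finger and a grainyhead-like transcription factor, and mutants of either make conidia that do not separate. *rca-1* encodes a Myb protein related to FlbD of Aspergillus nidulans, a regulator of conidiation in that species. *rco-1* encodes the counterpart of the yeast corepressor Tup1, with which CSP-1 is known to act. *tah-1* encodes a zinc cluster transcription factor whose loss gives tall aerial hyphae.

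On the NC12 assembly the members lie on 6 chromosomes and none overlaps another annotated gene. *fl* is on chromosome II (3805777 to 3809265), *acon-3* on IV (271905 to 274263), *csp-1* on I (3284468 to 3286740), *csp-2* on VII (1812241 to 1816456) and *rca-1* on V (3617075 to 3618886). *rco-1* (1904221 to 1907451) and *tah-1* (3323266 to 3326815) share chromosome III. *rco-1* has the closest neighbour, NCU06204, at a distance of 62 bases. *csp-2* and *tah-1* each have 2 transcripts in the RefSeq annotation, which the gene levels do not separate.

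Each deposited value is the level of a gene at one stage relative to the stage at which that gene was lowest on that medium, estimated from the 3 replicates together, with a 95% interval. A level of 1 therefore marks the lowest stage, and levels cannot be compared between genes or between media. No value per library is in these tables, so the intervals are the error and the spread between replicates is not shown. All 7 genes had an estimate with an interval above 0 in all 8 conditions. The intervals of *acon-3* were the widest, with an SE of 0.0495 to 0.0837 in log2 beside a median over all genes of 0.0212 on BM and 0.0193 on MSM.

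The deposited levels of most genes moved together between stages on BM. The median log2 change of all genes was −0.37 from stage 1 to 2, 0.42 from stage 2 to 3 and −0.30 from stage 3 to 4 on BM, but only 0.02, −0.04 and 0.15 on MSM. Changes are therefore given in log2 relative to the median of all genes tested in that comparison, with their SE, and the uncentred change is added where its sign is the opposite or the call ends. A gene is called higher or lower where a two-sided z test based on the intervals passed a Bonferroni adjusted p of 0.01 over all genes tested. By this rule more than 1 gene in 2 was called at every step, so sizes and the place of a change among all genes say more than the call.

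**Figure D1:**
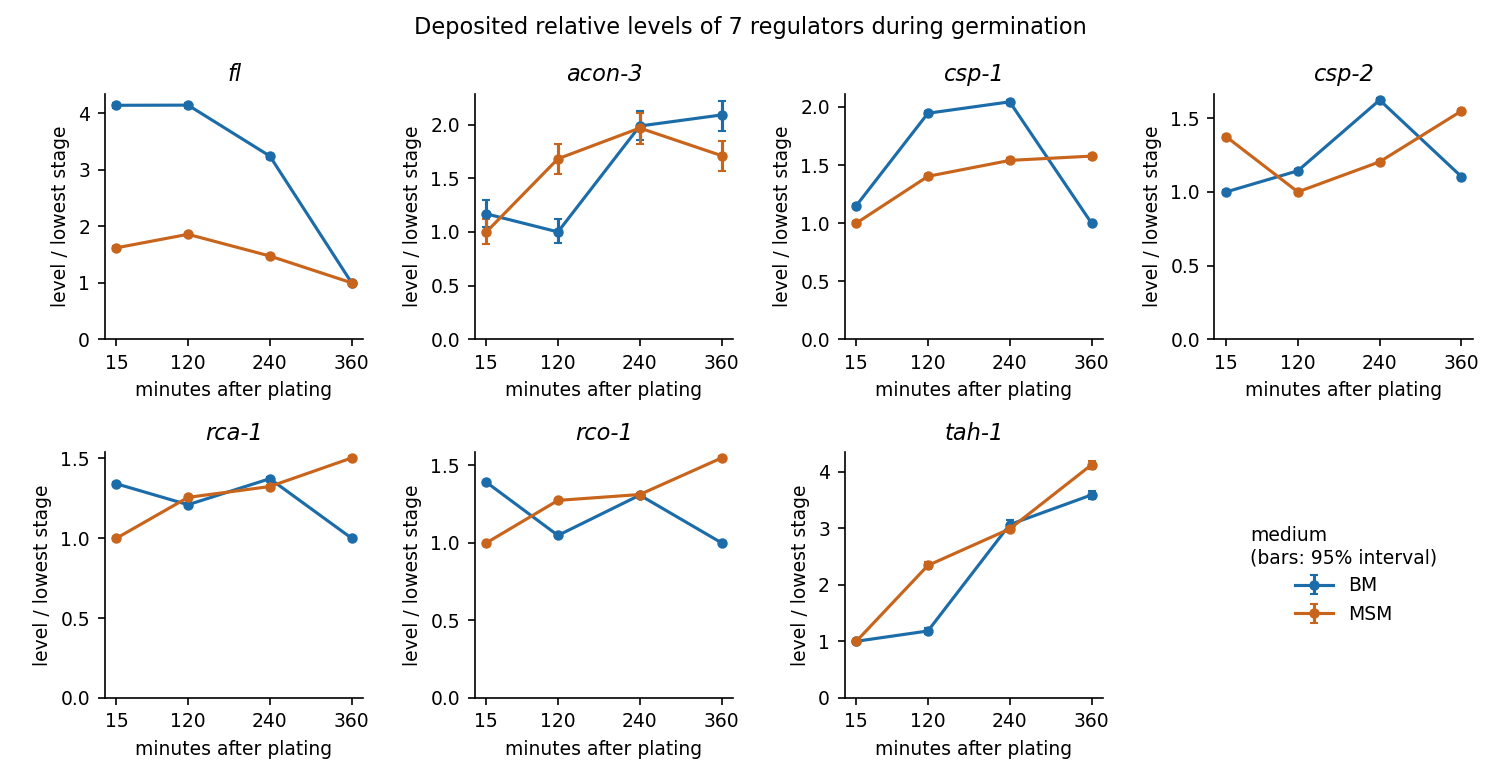
Deposited relative level of each of the 7 genes (y axis, lowest stage of the gene on that medium = 1) at 15, 120, 240 and 360 min (x axis), on BM and on MSM, with 95% intervals as bars. *fl* ends at its lowest level on both media and *tah-1* at its highest, and the heights of the 2 media cannot be compared within a panel.

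*fl*, the regulator of conidial chains, fell during germination on both media. On BM its level was 4.14 (95% interval 4.10 to 4.18), 4.15 (4.09 to 4.19), 3.24 (3.19 to 3.29) and 1 (0.975 to 1.03) at stages 1 to 4. On MSM it was 1.62 (1.596 to 1.644), 1.86 (1.84 to 1.88), 1.48 (1.45 to 1.50) and 1 (0.981 to 1.02). The first 3 stages were thus high and the last low on both media, and the interval of stage 4 did not overlap that of any other stage. Relative to the median gene, *fl* rose from stage 1 to 2 on BM (0.37 ± 0.012, but uncentred 0.00 and then not called), fell from stage 2 to 3 (−0.77 ± 0.014) and fell again from stage 3 to 4 (−1.40 ± 0.021). That last change, to 2.64-fold lower, stood below all but 2.6% of the genes tested. On MSM the same steps were smaller, at 0.18 ± 0.015, −0.30 ± 0.015 and −0.71 ± 0.018, each of them called. Over the whole course *fl* fell 3.37-fold on BM (−1.75 ± 0.020) and 1.77-fold on MSM (−0.83 ± 0.017). The order of its stages was the same on both media, with stage 4 lowest, then stages 3, 1 and 2, and every pair of neighbours in that order was told apart by the centred test. Without centring, stages 1 and 2 on BM were not told apart. In a separate check the SE was multiplied by 3, as a guard against intervals that are too narrow. Of the steps and the whole-course changes, only the first step on MSM then lost its call. The order of stages 3 and 1 was not put to that check, and on MSM they differed by 0.09 (0.06 to 0.12).

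*acon-3*, needed for the start of budding, went up rather than down. On BM its level was 1.17 (1.05 to 1.29), 1 (0.896 to 1.12), 1.99 (1.86 to 2.13) and 2.09 (1.94 to 2.22), so that the early pair of stages and the late pair did not overlap. On MSM the level was 1 (0.890 to 1.12), 1.68 (1.54 to 1.82), 1.97 (1.82 to 2.11) and 1.71 (1.57 to 1.84), and only stage 1 stood apart from the others. The rise on BM came from stage 2 to 3 (0.57 ± 0.095) and from stage 3 to 4 (0.37 ± 0.070, but uncentred 0.07 and then not called), whereas the first step was not called (0.15 ± 0.11, uncentred −0.22). On MSM the first step carried the rise (0.73 ± 0.10), and the later steps, 0.26 ± 0.083 and −0.35 ± 0.081, were not called. From stage 1 to 4 *acon-3* rose 2.20-fold on BM (1.14 ± 0.092) and 1.56-fold on MSM (0.64 ± 0.10). Stages 4 and 2 on MSM, with a difference of 0.13 (−0.04 to 0.30), could not be put in order, and neither could stages 1 and 2 on BM (−0.07 to 0.37). Every *acon-3* call was lost when the SE of all genes was multiplied by 3.

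**Figure D2:**
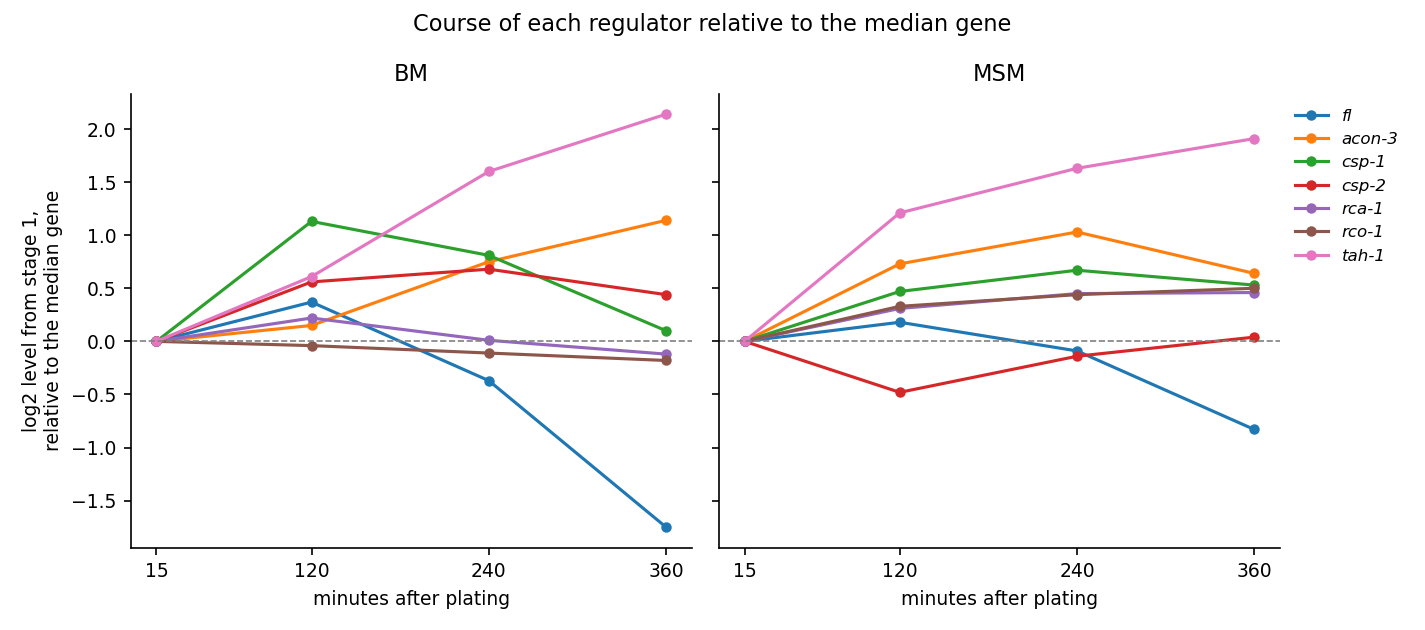
Centred log2 level of each of the 7 genes relative to stage 1 (y axis) at the 4 sampling times (x axis, min) on BM and on MSM. On BM the genes spread from −1.75 for *fl* to 2.14 for *tah-1* at 360 min, and on MSM from −0.83 to 1.91.

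Of the separation genes, *csp-1* passed through a peak on BM and reached a plateau on MSM. Its level on BM was 1.15 (1.13 to 1.17), 1.95 (1.93 to 1.97), 2.04 (2.02 to 2.06) and 1 (0.985 to 1.02), high at the middle stages and low at both ends. On MSM it was 1 (0.985 to 1.02), 1.40 (1.39 to 1.42), 1.54 (1.52 to 1.56) and 1.58 (1.555 to 1.595), with only stage 1 well below the rest. On BM *csp-1* rose 2.19-fold from stage 1 to 2 (1.13 ± 0.014), more than 96.3% of the genes tested. It then fell from stage 2 to 3 (−0.35 ± 0.011, uncentred 0.07) and from stage 3 to 4 (−0.73 ± 0.014), which left it near its starting level (0.10 ± 0.016 from stage 1 to 4, uncentred −0.20). On MSM it rose by 0.47 ± 0.015 and 0.17 ± 0.014 in the first steps and then changed by −0.12 ± 0.013 (uncentred 0.03 and then not called), and from stage 1 to 4 it rose 1.44-fold (0.53 ± 0.015). The difference between stages 2 and 4 on MSM was 0.01 (−0.01 to 0.04), so these were not told apart. With the SE multiplied by 3, the change from stage 1 to 4 on BM and the last pair of steps on MSM were no longer called.

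*csp-2*, the other separation gene, moved in opposite directions on the media in the first step. On BM its level was 1 (0.990 to 1.01), 1.14 (1.13 to 1.15), 1.62 (1.61 to 1.64) and 1.10 (1.09 to 1.11), highest at stage 3. On MSM it was 1.37 (1.36 to 1.39), 1 (0.989 to 1.01), 1.204 (1.191 to 1.216) and 1.55 (1.53 to 1.56), lowest at stage 2 and highest at stage 4. From stage 1 to 2 *csp-2* rose on BM (0.56 ± 0.010), whereas it fell on MSM (−0.48 ± 0.011). On BM the next steps were a rise of 0.09 ± 0.0086 and a change of −0.26 ± 0.0089. On MSM there were rises of 0.30 ± 0.012 and 0.21 ± 0.011, and all of these steps were called, though that from stage 2 to 3 on BM not with the SE multiplied by 3. At stage 4 the gene stood 1.36-fold above stage 1 on BM (0.44 ± 0.010). On MSM the net change was not called (0.04 ± 0.010, but uncentred 0.17 and then called). In the order of its centred levels stage 2 was next to the top on BM and lowest on MSM.

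*rca-1*, the Myb gene, changed little. On BM its level was 1.34 (1.33 to 1.36), 1.21 (1.199 to 1.222), 1.37 (1.36 to 1.38) and 1 (0.988 to 1.01), and on MSM it was 1 (0.990 to 1.01), 1.26 (1.25 to 1.27), 1.32 (1.31 to 1.33) and 1.50 (1.49 to 1.51). The MSM levels went up at every stage, while those on BM went down, up and down again. Relative to the median gene, the BM steps were 0.22 ± 0.0094 (uncentred −0.15), −0.23 ± 0.0090 (uncentred 0.18) and −0.16 ± 0.0099, so the first pair of directions turns with the centring. On MSM the steps were 0.31 ± 0.0092, 0.11 ± 0.0087 and 0.03 ± 0.0083. The last of these was not called, but uncentred it was 0.18 and called. *rca-1* ended lower than it began on BM (−0.12 ± 0.010) and 1.37-fold higher on MSM (0.46 ± 0.0089). Its change from stage 1 to 4 on BM and from stage 2 to 3 on MSM lost the call with the SE multiplied by 3.

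*rco-1*, the corepressor gene, was the member that varied least on BM after centring. Its level there was 1.39 (1.38 to 1.40), 1.05 (1.04 to 1.06), 1.31 (1.30 to 1.32) and 1 (0.992 to 1.01), and the ups and downs between stages went with those of the median gene. After centring, the first step on BM was −0.04 ± 0.0084 and not called (uncentred −0.41 and then called). The next were −0.10 ± 0.0092 (uncentred 0.32) and −0.09 ± 0.0091. The change from stage 1 to 4 was −0.18 ± 0.0083. On MSM the level was 1 (0.993 to 1.01), 1.27 (1.27 to 1.28), 1.31 (1.30 to 1.32) and 1.55 (1.54 to 1.56), which rose at each step, by 0.33 ± 0.0073, 0.08 ± 0.0067 and 0.09 ± 0.0065. The whole course on MSM was a 1.42-fold rise (0.50 ± 0.0071). The changes of *rco-1* from stage 2 to 3 and from stage 3 to 4 were too small on either medium to be called with the SE multiplied by 3.

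*tah-1*, whose mutant has tall aerial hyphae, rose at every step on both media. On BM its level was 1 (0.953 to 1.05), 1.18 (1.13 to 1.24), 3.06 (3.00 to 3.14) and 3.59 (3.51 to 3.66). On MSM it was 1 (0.958 to 1.04), 2.34 (2.28 to 2.39), 2.99 (2.93 to 3.05) and 4.12 (4.05 to 4.19). No interval overlapped that of another stage on the same medium. The largest step on BM was from stage 2 to 3 (0.96 ± 0.039), beside 0.61 ± 0.049 before it and 0.52 ± 0.023 after it. On MSM the largest step came first (1.21 ± 0.036, above 90.7% of genes), followed by 0.39 ± 0.024 and 0.31 ± 0.019. From stage 1 to 4 *tah-1* rose 4.41-fold on BM (2.14 ± 0.038), above 95.6% of the genes tested, and 3.77-fold on MSM (1.91 ± 0.034). With the SE multiplied by 3, the rise from stage 1 to 2 on BM was the only one of these steps whose call was lost.

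Counts of called members are read against the share of all genes called in the same direction. On BM from stage 1 to 2, 5 of the 7 were called higher and 0 lower, beside 30.1% of all 8974 genes higher and 31.1% lower. From stage 2 to 3 the split was 3 higher and 4 lower (35.1% and 35.6% of 8923 genes), and from stage 3 to 4 it was 2 higher and 5 lower (31.1% and 27.1% of 8888). From stage 1 to 4 on BM, 4 were higher and 3 lower (39.6% and 38.4% of 8901). On MSM the first step had 6 members higher and 1 lower, *csp-2* (36.2% and 36.0% of 9026 genes). The next step had 5 higher and 1 lower, *fl* (34.4% and 32.0% of 8997), and the last had 3 higher and 2 lower, *fl* and *csp-1* (34.1% and 33.7% of 8975). From stage 1 to 4 on MSM, 5 were higher and 1, *fl*, was lower (41.7% and 40.4% of 8988).

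Some of these directions on BM depend on the centring. Without it, the 7 genes split into 3 higher and 2 lower from stage 1 to 2, 6 and 1 from stage 2 to 3, 1 and 5 from stage 3 to 4, and 3 and 4 from stage 1 to 4. Of all called genes, 88.3%, 24.9%, 83.9% and 62.5% were then lower in those comparisons, beside 50.8%, 50.4%, 46.6% and 49.2% with centring. On MSM the split of all genes moved by more than 10 percentage points only from stage 3 to 4, where 36.8% of called genes were lower without centring and 49.7% with it.

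The sizes of the changes were mostly ordinary. Of the 42 changes between consecutive stages, 38 lay within the middle 80% of all genes, and the others were *csp-1* from stage 1 to 2 and from stage 3 to 4 on BM, *fl* from stage 3 to 4 on BM and *tah-1* from stage 1 to 2 on MSM. The median size of the change from stage 1 to 4 was 0.44 over the 7 genes and 0.75 over all genes on BM, and 0.53 beside 1.06 on MSM. The range of a course, its highest over its lowest centred level, was 4.41-fold for *tah-1* and 4.36-fold for *fl* on BM, wider than 84.8% and 84.4% of genes. *rco-1* was at the other end with 1.13-fold, wider than 2.2% of genes, and *rca-1* with 1.27-fold was wider than 10.2%. On MSM *tah-1* again had the widest range, 3.77-fold, whereas *fl* with 2.00-fold was below the median gene at 2.42-fold. The median gene on BM had a range of 1.99-fold.

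**Figure D3:**
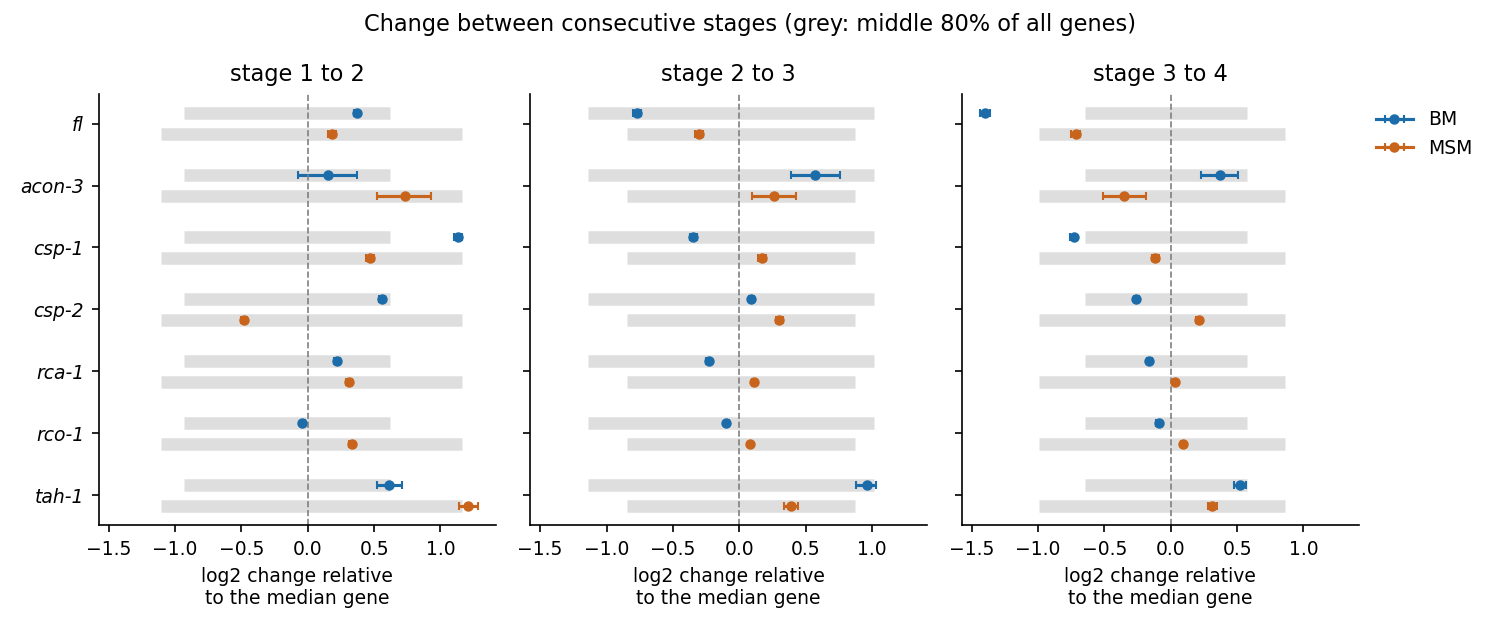
Centred log2 change of the 7 genes (x axis) in each of the 3 steps on BM and on MSM, with 95% intervals, beside the middle 80% of all genes tested as a band. Of the 42 points, 4 lie outside the band.

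Because levels are relative within a medium, the media were compared by their changes, by taking the BM value from the MSM value, with positive values where the gene rose more or fell less on MSM. In the first step *csp-2* differed most (−1.04 ± 0.015), and *csp-1* also rose less on MSM (−0.66 ± 0.021). *tah-1* (0.59 ± 0.061) and *rco-1* (0.37 ± 0.011) rose more on MSM. The difference for *acon-3* was of the same size as that of *tah-1* but was not called (0.58, 0.28 to 0.88). Of the 7 genes, 3 were called higher and 3 lower, beside 34.6% and 31.6% of 8856 genes.

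In the later steps the centred difference had the opposite sign for several genes. From stage 2 to 3, *csp-1* (0.52 ± 0.017) and *fl* (0.47 ± 0.020) were higher on MSM and *tah-1* was lower (−0.57 ± 0.045), with 5 genes called higher and 1 lower beside 32.8% and 33.8% of 8807. Those of *csp-1* and *fl* rest on the centring, since uncentred they were 0.06 and 0.02 and not called, and those of *csp-2*, *rca-1* and *rco-1* were then negative (−0.24, −0.11 and −0.28). From stage 3 to 4, *fl* (0.69 ± 0.028), *csp-1* (0.62 ± 0.019) and *csp-2* (0.47 ± 0.014) fell less or rose more on MSM, and *acon-3* had the opposite sign (−0.72 ± 0.11, but uncentred −0.28 and then not called). This last step had 5 genes higher and 2 lower, beside 26.6% and 34.3% of 8773. *tah-1* made its largest rise in the first step on MSM and from stage 2 to 3 on BM, with or without centring. Its difference from stage 3 to 4 was −0.21 ± 0.03, but uncentred 0.24 and then called in the opposite direction.

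Over the whole course, 4 genes were called higher and 1 lower on MSM than on BM, beside 40.0% and 35.1% of 8781 genes. The higher ones were *fl* (0.93 ± 0.027), *rco-1* (0.68 ± 0.011), *rca-1* (0.58 ± 0.014) and *csp-1* (0.43 ± 0.022), and the lower one was *csp-2* (−0.40 ± 0.015, uncentred 0.03 and then not called). Of the 7 genes, *acon-3*, *csp-1* and *tah-1* ended higher than they began on both media and *fl* ended lower. Without centring, *csp-1* was lower on BM, and *csp-2* was called higher on both media (0.14 on BM and 0.17 on MSM). *rca-1* and *rco-1* ended lower than they began on BM and higher on MSM, with or without centring. For *acon-3* (−0.49, −0.76 to −0.22) and *tah-1* (−0.23, −0.33 to −0.13, uncentred 0.20) the difference was not called. Without centring the members split into 5 higher and 2 lower in the first step, 0 and 5 in the second, 6 and 0 in the last and 4 and 0 over the course. Of all called genes 22.1%, 76.7%, 22.1% and 32.5% were then lower, beside 47.7%, 50.7%, 56.4% and 46.7% with centring.

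**Figure D4:**
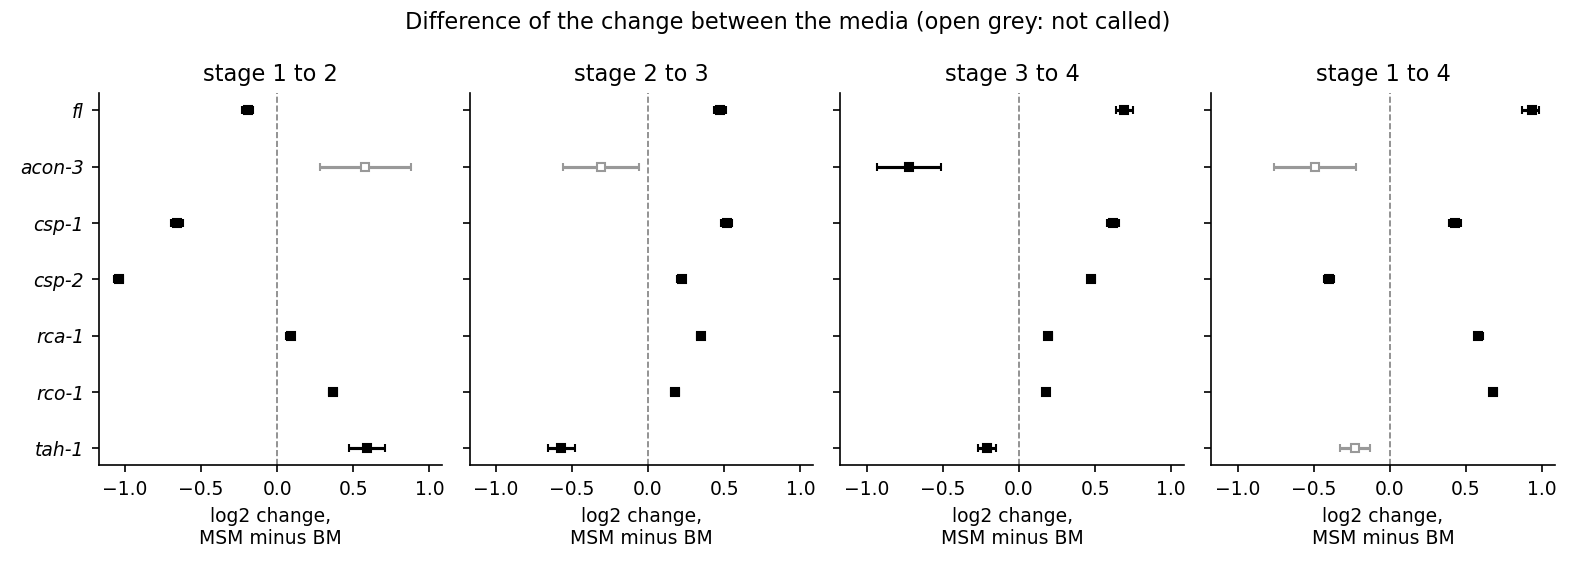
Difference of the centred log2 change on MSM less that on BM (x axis) for each of the 7 genes in each step and from stage 1 to 4, with 95% intervals. *csp-2* lies farthest to the left in the first step (−1.04) and *fl* farthest to the right over the whole course (0.93).

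The 7 courses were compared with each other by the root mean square difference of their 6 centred steps, 3 on each medium. *rca-1* and *rco-1* were by far the closest pair, at 0.13 in log2, and the next was *csp-2* with *rca-1* at 0.39. Both *rca-1* and *rco-1* changed little on BM (ranges of 1.27-fold and 1.13-fold), and this measure is small between genes that change little. *fl* and *tah-1* were farthest apart, at 1.25, followed by *fl* and *acon-3* at 0.98. The separation genes *csp-1* and *csp-2* were at 0.54 by this measure.

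For each member the 3 most similar genes with a symbol were taken by the same measure. Of 8676 genes with intervals above 0 in all 8 conditions, 1099 have a symbol, and the others were not searched. Those of *fl* were *arg-12* (0.378), *phy-1* (0.381) and *hcp-1* (0.408), and none was close, although the median gene lay at 0.92. *csp-1* also had only distant neighbours, *phy-1* (0.326), *os-2* (0.344) and *vib-1* (0.357). *phy-1*, which encodes a phytochrome, was thus on both lists. *acon-3* was nearest to *atp-2* (0.089) and *atp-1* (0.108), which encode subunits of the mitochondrial ATP synthase, and then to *tca-6* (0.113). Those distances are of the size of the SE of its own steps (0.07 to 0.11), so the order of these 3 is not settled. *tah-1* was nearest to the histone gene *hH2B* (0.123), then *ecd-2* (0.135) and *pca-2* (0.173). *csp-2* was nearest to *nmr* (0.172), which encodes the repressor of nitrogen metabolism genes, then *gh45-1* (0.199) and *qde-1* (0.230). *rca-1* and *rco-1* shared *ro-11* (0.072 and 0.109) and *pod-4* (0.096 and 0.10), with *pma-1* (0.093), the plasma membrane proton pump gene, and *syn-2* (0.122) as the remaining neighbour of each. These likenesses describe 6 numbers per gene that come from the same libraries, and they carry no test. By Pearson's correlation, which ignores the size of the changes, only 4 of the 21 neighbours were the same. *csp-1* was then the nearest gene to *fl* (0.966), and *fl* came next after *gpr-1* for *csp-1*.

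Other genes of the asexual program give the setting for these courses. Among 25 further regulators of aerial hyphae and asexual development, 7 were higher and 17 lower at stage 4 than at stage 1 on BM (median −0.42), and 10 were higher and 13 lower on MSM (median −0.26), where the median gene is at 0. These counts stand beside 39.6% of all genes higher and 38.4% lower on BM, and 41.7% and 40.4% on MSM, and the same shares apply to the lists that follow. The largest changes were those of *asl-2*, listed in the reference as *ts* (−3.32 ± 0.025 on BM, −1.68 ± 0.018 on MSM), *tah-4* (0.93 ± 0.086 and 3.22 ± 0.097) and *vad-4* (−1.08 ± 0.013 and −2.90 ± 0.023). *tah-4* bears the same name as *tah-1*, for tall aerial hyphae in the mutant, and rose on both media. Of the others of that name, *tah-3* was lower on both media (−0.26 ± 0.014 on BM and −0.35 ± 0.018 on MSM), and *tah-2* was lower on MSM (−0.28 ± 0.027) and not called on BM (−0.02 ± 0.028). *tah-2* and *tah-3* were added after their values were seen.

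The 15 measured output genes of conidiation differed in this respect between the media. On BM 3 were higher and 12 lower from stage 1 to 4 (median −2.53), and on MSM 8 were higher and 7 lower (median 0.19). The change was called higher on MSM than on BM for 12 of the 15 and lower for 0, with a median of 1.73 beside 0.09 over all genes, of which 40.0% were called higher and 35.1% lower. *con-10*, which is abundant in conidia, changed by −3.62 ± 0.031 on BM but by 0.19 ± 0.0070 on MSM, and *con-13* by −5.23 ± 0.89 and −2.40 ± 0.30. *ccg-13*, a clock-controlled gene, fell by a like amount on both media (−4.12 ± 0.079 and −4.22 ± 0.062). *eas*, the hydrophobin gene of the conidial coat and a known target of *fl*, fell on both media (−3.48 on BM and −1.74 on MSM), as did *fl* (−1.75 and −0.83). Of the growth markers, *act*, which encodes actin, rose by 0.98 on BM and 1.74 on MSM, whereas the tubulin gene *tba-2* was lower on both (−0.73 ± 0.0055 and −0.37 ± 0.0052). These spore and growth markers changed over the same stages as the members, and their part in the members' changes was not tested. A link between the fall of *eas* and that of *fl* was not tested either.

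Inputs to conidiation also moved. Of the light and clock genes, *nop-1* is also counted among the output genes above, so these lists overlap. All 10 light and clock genes were lower at stage 4 than at stage 1 on BM (median −0.87), and on MSM 7 were lower and 2 higher (median −0.30). The clock gene *frq* fell on BM and MSM (−2.56 and −2.66), and so did *frh*, whose product is the partner of FRQ (−0.63 and −2.92), and the opsin gene *nop-1* (−2.54 and −0.42). Of 20 signaling genes, 7 were higher and 10 lower on BM (median −0.15), whereas 15 were higher and 4 lower on MSM (median 1.00). The protein kinase A catalytic subunit gene *pkac-1* rose most, by 3.88 ± 0.049 on BM and 5.26 ± 0.070 on MSM. The MAP kinase gene *mak-2* (1.39 ± 0.011 and 2.61 ± 0.013) and *mek-2*, which encodes the kinase above it (1.11 ± 0.014 and 1.98 ± 0.015), rose on both media.

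The sizes given here rest on intervals from pooled replicates, and of the 84 tests of the 7 genes 74 were called, beside 58.2% to 82.1% of all genes in the same 12 comparisons. Of the member calls, 23 were lost with the SE multiplied by 3. Differences between the media at a given stage cannot be told apart from differences in the timing of germination.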

How the data were processed

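RNA was measured in 24 libraries, 3 replicates of each of 8 conditions. Per the labels and methods, stranded paired-end reads were aligned with TopHat2 2.0.12 and counted with HTSeq 0.6.1p1. From the counts of the 3 replicates the authors estimated with LOX, and deposited, a ratio for each gene, medium and stage: the level divided by that at its lowest stage, along with how far the 95% bounds lie above and below it. A level of 0 means that none was estimated, and 335 genes on BM and 312 on MSM had none at any stage. Depth and values per library were not used here, so precision is that of the intervals. Columns 1 to 4 were taken as stages 1 to 4 from their numbers, and the columns of the LOX fit's acceptance ratio and likelihood were not used. The NC12 gene reference held 9729 of the 9730 identifiers and gave a symbol to 1118.

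The SE of a log2 level was its interval's width on the log2 scale over that of a standard normal 95% interval. A level at 0, or with a lower bound of 0 or less, was omitted. Log2 changes were centred on the median gene and tested by a two-sided z test that takes stages as independent, with Bonferroni adjustment over all genes tested (called below 0.01), in 12 comparisons. Likeness was ranked over genes with intervals above 0 in all 8 conditions. The genes named were the 7 members, the 3 nearest to each that have a symbol, and up to 3 genes of each context list with the largest called change from stage 1 to 4, plus *eas*, *act* and *tba-2* as state markers. Members and lists were chosen with earlier results of these data known. *nop-1*, *con-10* and *eas* stand both in the output list and in another list. Of the listed symbols, 25 of 27 further regulators, 15 of 18 output genes, 10 of 10 light and clock genes, 20 of 22 signaling genes and 4 of 4 state markers were matched to separate genes and measured. Alternatives were no centring, centring on the middle 80% of genes, Benjamini-Hochberg adjustment at 0.05, SE multiplied by 3, a change of at least 2-fold, only genes with an SE under 0.25, and Pearson's correlation for likeness. The calls were checked on simulated data with known changes. The noise was drawn from the deposited intervals, so this check cannot show whether those are too narrow for the spread between replicates. Computations used SciPy 1.17.1, pandas 2.3.3 and numpy 2.4.6 in Python 3.11.15, and figures were drawn with matplotlib 3.10.9.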

Additional observations from a re-analysis of the deposited data

Results flagged for a closer look

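For 24 of the 28 comparisons of the media over the 7 genes, the centred log2 change on MSM differed from that on BM by the z test of the difference itself (Bonferroni adjusted over all genes). In these comparisons 60.9% to 75.1% of all genes differed by the same test. All values are MSM less BM. *fl* rose less in the first step (−0.19) and fell less afterwards (0.47 from stage 2 to 3, 0.69 from stage 3 to 4, 0.93 from stage 1 to 4). For *acon-3* only the difference from stage 3 to 4 was called (−0.72), although the 95% interval excluded 0 in the other comparisons too. Its uncentred differences from stage 1 to 2 (0.97) and from stage 2 to 3 (−0.76) were called instead. *csp-1* differed by −0.66, 0.52 and 0.62 in the 3 steps and by 0.43 over the course, so that a smaller early rise on MSM was followed by smaller falls or a further rise. *csp-2* differed by −1.04, 0.22 and 0.47 in the steps and by −0.40 over the course. After centring, *rca-1* rose more or fell less on MSM throughout, by 0.09, 0.35 and 0.19 in the steps and 0.58 over the course. So did *rco-1*, by 0.37, 0.18 and 0.18 in the steps and 0.68 over the course. *tah-1* differed by 0.59 in the first step and by −0.57 and −0.21 in the later ones. With the SE multiplied by 3, those of *acon-3* and *tah-1*, and those of *fl* and *rca-1* in the first step, were no longer called. Without centring, the differences of *fl* and *csp-1* from stage 2 to 3, of *acon-3* from stage 3 to 4 and of *csp-2* over the course were not called. Other differences turned their sign and were called in the opposite direction. They were those of *fl* in the first step (0.20) and of *tah-1* from stage 3 to 4 (0.24). From stage 2 to 3 they were those of *csp-2* (−0.24), *rca-1* (−0.11) and *rco-1* (−0.28).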

How the results depend on the processing

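No paired analysis was possible because the deposited levels pool the 3 replicates, and for the same reason no replicate could be left out. Of the 84 results of the 7 genes, 14 turned their sign without centring, of which 10 were called both ways and 2 lost their call. Of the others, 5 lost and 5 gained a call, and 60 kept sign and side. The 5 that lost it were *fl* on BM from stage 1 to 2 (0.00), *acon-3* on BM from stage 3 to 4 (0.07), and, for MSM less BM, *fl* (0.02) and *csp-1* (0.06) from stage 2 to 3 and *acon-3* from stage 3 to 4 (−0.28). The uncentred values of those that turned were, on BM, −0.22 (*acon-3*) and −0.15 (*rca-1*) from stage 1 to 2, 0.07 (*csp-1*), 0.18 (*rca-1*) and 0.32 (*rco-1*) from stage 2 to 3, and −0.20 (*csp-1*) from stage 1 to 4. On MSM it was 0.03 (*csp-1*, stage 3 to 4). For MSM less BM they were 0.20 (*fl*, stage 1 to 2), −0.24 (*csp-2*), −0.11 (*rca-1*) and −0.28 (*rco-1*) from stage 2 to 3, 0.24 (*tah-1*, stage 3 to 4), and 0.03 (*csp-2*) and 0.20 (*tah-1*) from stage 1 to 4. Without centring, a call was gained by *rco-1* on BM from stage 1 to 2 (−0.41). On MSM it was gained by *rca-1* from stage 3 to 4 (0.18) and *csp-2* from stage 1 to 4 (0.17). For MSM less BM it was gained by *acon-3* from stage 1 to 2 (0.97) and from stage 2 to 3 (−0.76). The uncentred values hold the common shift of all genes, which the centring removes by construction. With the SE multiplied by 3, 23 calls were lost, and the members called were 4 from stage 2 to 3 and 4 from stage 1 to 4 on BM, 3 from stage 2 to 3 and 3 from stage 3 to 4 on MSM, and 3 for MSM less BM from stage 1 to 2. Asking for at least 2-fold removed 66 of the 74 calls by construction and left, on BM, 1, 0, 1 and 3 members (steps 1 to 3, then stage 1 to 4), on MSM 1, 0, 0 and 1, and for MSM less BM 1, 0, 0 and 0. Benjamini-Hochberg adjustment added 9 calls, centring on the middle 80% of genes added 2 and removed 1, and asking for an SE under 0.25 removed 1. What limits precision is that replicate spread cannot be read from the levels, and for *acon-3* the width of its intervals.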
